A study of Mus musculus with 9 samples.

Results

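RNA-Seq libraries of stably expanded leukemia cells were set against those of de novo expanded leukemia cells, 3 libraries per group and 6 of the 9 libraries of the study. Features were the genes with a mean normalized count (reads divided by a library's size factor) of at least 10 over these 6 libraries, which were 13758 of the 55401 genes in the table. The stably expanded samples were clone 34BC-D, which was already expanded early after transplantation, taken from leukemic mice #13, #14 and #17. The de novo expanded samples were clone 38BC-D from mouse #13, clone 43BC-D from mouse #14 and clone 33BC-D from mouse #17, which had expanded by the leukemic endpoint. The comparison addresses what separates 2 kinds of expanded clones that grew in the same animals.

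All samples shared their origin and treatment. They were H9M cells, that is lineage-negative bone marrow cells of C57BL/6-Ly5.1 mice transduced with *Hoxa9* and *Meis1* and then edited with Cas9. A lentiviral color-coding vector supplied fluorescent proteins and the surface marker EGFRt. A mix of color-coded clones was injected with helper bone marrow into lethally irradiated C57Bl6/J recipients, whose age the labels do not give, and CD45.1+EGFRtbright cells of each color code were sorted from the spleen in a cKit+CD11bdim/neg gate. The stably expanded group is thus 1 clone in 3 hosts and the de novo expanded group is 3 clones in 3 hosts, so that a trait of clone 34BC-D and a trait of stable expansion cannot be told apart. The labels link the columns of the table to a group but not to a clone or mouse. Libraries are therefore numbered 1 to 3 within each group, the numbers name no clone, and nothing says which libraries came from the same animal. Since these are bulk samples, fewer cells of a type and less RNA per cell cannot be told apart either.

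*Hoxa9* and *Meis1* encode homeodomain proteins that cooperate to keep myeloid progenitors immature and self-renewing. Normal neutrophil precursors leave this state in steps. The primary (azurophil) granule proteins, such as myeloperoxidase and neutrophil elastase, are made at the promyelocyte stage, and the secondary granule proteins, such as lactoferrin and the cathelicidin peptide, follow under the factor C/EBPε at the myelocyte stage. Glutathione peroxidases are selenoproteins or related enzymes that reduce peroxides at the expense of glutathione, and *Gpx3* encodes a secreted member of the family.

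Sort and design genes were measured first. The 6 libraries held between 10379739 and 15551196 reads on genes. *Ptprc*, which encodes CD45, lay between 4173 and 5173 normalized counts in all 6 libraries. For *Kit*, the stably expanded libraries held 3072, 3065 and 2754 normalized counts and the de novo expanded libraries 1908, 3021 and 3744. *Itgam*, which encodes CD11b, was at 1175, 770 and 816 in stably expanded and at 374, 466 and 796 in de novo expanded libraries. *Hoxa9* and *Meis1*, whose reads include those of the vectors, were both lowest in de novo expanded library 1, at 4648 and 7703, and highest in de novo expanded library 3, at 9397 and 15032. Of 14 library measures, which included depth, genes with a read, mitochondrial share and the summed level of each marker list, none had an exact permutation p under 0.3 (two-sided, where 0.1 is the smallest that 3 against 3 can give).

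Markers of other blood cells were counted as lists. Of 14 T and NK cell markers, 2 were abundant enough to be tested (*Nkg7* and *Lck*), and *Cd3e* held at most 3.64 normalized counts in any library. The list summed to between 17.1 and 33.1 reads per 1000000 reads on genes (CPM) in stably expanded libraries and to 5.01, 5.98 and 75.1 CPM in de novo expanded libraries 1, 2 and 3. Most of the sum in de novo expanded library 3 was *Nkg7*, at 432, 187 and 311 normalized counts in stably expanded and 15.7, 48.4 and 967 in de novo expanded libraries. For 14 macrophage and dendritic cell markers the sums were 221 to 268 CPM against 125, 187 and 265 CPM, and the part of these cells in the results was not tested. Most of this sum in de novo expanded library 3 was *Vcam1*, at 1935, 1409 and 1064 against 15.7, 90.8 and 2282 normalized counts. Both sums thus largely follow 1 gene in that library. Of 12 B cell markers, 5 were tested, and their summed level was between 87.8 and 109 CPM in stably expanded libraries and 230, 168 and 77.6 CPM in de novo expanded libraries 1, 2 and 3. Among 14 markers of mast cells, basophils and eosinophils, 5 had no read in any library, and the list summed to between 131 and 223 CPM in stably expanded and 68.9 to 185 CPM in de novo expanded libraries.

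The libraries did not separate by group. Across the 13758 genes (genes of a library are not independent replicates, so no test was made), Pearson's r of log2(normalized count + 1) was between 0.963 and 0.973 within the stably expanded group. De novo expanded libraries 1 and 2 resembled each other as closely, with r = 0.970. Library 3 of this group correlated with them at only 0.916 and 0.927, and with the stably expanded libraries at 0.964, 0.956 and 0.955. In terms of fold change, 8.10% of genes were at least 2-fold apart between de novo expanded libraries 1 and 2, 19.5% between libraries 1 and 3 and 17.0% between libraries 2 and 3. By contrast, 9.60% were 2-fold apart between de novo expanded library 3 and stably expanded library 1.

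**Figure D1:**
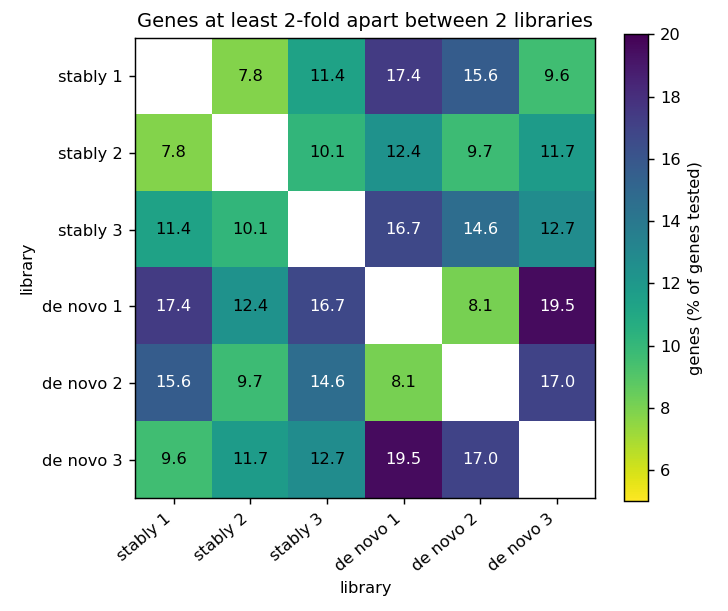
Share of the 13758 tested genes (%, color and number) whose normalized counts, after adding 1, differed at least 2-fold between each 2 of the 6 libraries, with libraries on both axes. De novo expanded libraries 1 and 3 were the most distant pair at 19.5% and stably expanded libraries 1 and 2 the closest at 7.8%.

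This library decided how many genes passed the test. With all 6 libraries, limma called 1 gene at an adjusted p under 0.05 and at least 2-fold, 0.00727% of the genes tested. An unadjusted p under 0.05 was reached by 664 genes, 4.83% of those tested, and by 269 genes (1.96%) together with a 2-fold difference. DESeq2 on the recovered reads of 37490 genes called 29 genes without a prior on the fold change and 16 with one, 0.0774% and 0.0427%. When de novo expanded library 3 was left out, 508 genes were called, 3.69% of 13756, of which 355 (2.58%) were higher and 153 (1.11%) lower in clone 34BC-D. edgeR called 507 genes in the same 5 libraries and shared 488 of them, 96.1% of the limma list and 96.3% of its own. Leaving out any other library gave between 0 and 2 calls with limma and at most 1 with edgeR, whose fits without a library were added after the data had been seen.

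The values of de novo expanded library 3 were not used to call these 508 genes. That library was singled out for its distance from libraries 1 and 2, and with it only 1 gene was called. Its place away from that pair was therefore largely set beforehand. The positions are a description and no separate support. De novo expanded library 3 lay closer to the stably expanded mean than to the mean of de novo expanded libraries 1 and 2 in 484 of these genes, or 95.3%. It fell within the range of the stably expanded libraries in 215 genes and beyond that range, away from the other de novo expanded libraries, in 217. In only 7 genes did it fall within or past the range of de novo expanded libraries 1 and 2. It lay between the groups in the other 69. On a scale with 0 at the mean of de novo expanded libraries 1 and 2 and 1 at the stably expanded mean, its median position was 1.10 for the genes higher in stably expanded cells and 1.39 for those lower. Libraries beyond 1 on this scale are further from the pair than the stably expanded libraries are.

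**Figure D2:**
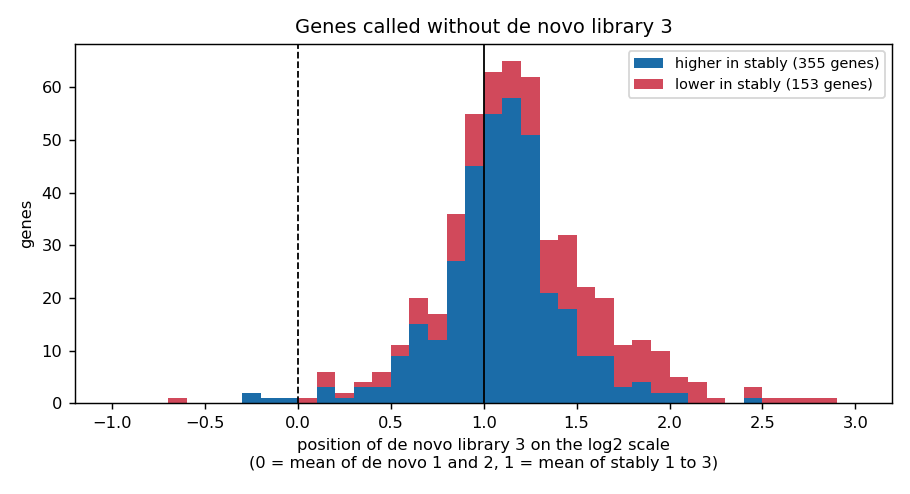
Number of genes (vertical axis) by the position of de novo expanded library 3 on the log2 scale (horizontal axis), for the 355 higher and 153 lower genes called between the stably expanded libraries and de novo expanded libraries 1 and 2. The dashed line marks the mean of de novo expanded libraries 1 and 2 and the solid line the stably expanded mean; most genes lie around or beyond the solid line.

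The groups did not overlap in 1322 genes, 9.61% of those tested, of which 641 (4.66%) were higher and 681 (4.95%) lower in stably expanded libraries. Random order of 3 against 3 values gives no overlap in a share of 0.1. The observed share is near that, so this count is not read as a difference between the groups. Requiring at least 2-fold change and a mean normalized count of at least 50 left 62 of the 1322 genes, 39 higher and 23 lower. Of the 12 of each direction with the smallest p, 11 higher and 12 lower genes are described here. In limma, none but *Gpx3* passed the adjusted threshold. Apart from *Gpx3* and *Fnbp1l* their adjusted p in limma was 0.891, so they are given as values. DESeq2, with and without a prior, called *Fnbp1l*, *Ikzf3*, *F5*, *Prg2*, *Klf5*, *Zfp11*, *Palld*, *Fyn*, *Satb1*, *Cers4*, *Mtss1*, *Pkp4* and *Dnah8* as well. Without a prior it also called *Mir17hg* and *Il12a*. Neither DESeq2 fit called *Ccdc91*, *Gm6768*, *Slc7a8*, *Ajm1*, *Ptprt*, *Maml2* or *Ighg2b*. In 24 of the 508 genes called without de novo expanded library 3, that library was nonetheless closer to the other de novo expanded libraries; *Gpx3*, *Fnbp1l*, *Ikzf3*, *Klf5*, *F5*, *Zfp11*, *Palld*, *Mir17hg*, *Mtss1* and *Il12a* were among them.

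*Gpx3* (chr11:54902453-54910377, plus strand, build GRCm38.p6) was the gene called in limma. It held 548, 330 and 274 normalized counts in the stably expanded libraries and 3.37, 2.59 and 5.36 in the de novo expanded libraries, which rest on 3, 3 and 6 reads. Every stably expanded library was thus far above every de novo expanded library, including library 3. The means were 384 ± 144 and 3.77 ± 1.43 (SD, n = 3 each), a 102-fold ratio, and the log2 difference was 6.31 ± 0.39 (SE) with an adjusted p of 0.00678 in limma and 0.0102 in edgeR. DESeq2 with a prior, which shrinks fold changes, gave a log2 fold change of 3.72. The call was lost in limma when any 1 stably expanded library was left out, with adjusted p of at most 0.161, while the difference stayed between 6.02 and 6.54. In the pre-malignant libraries of the de novo expanded clones, *Gpx3* was at 0.379, 0.274 and 2.90 CPM, against 19.9 to 39.9 CPM in stably expanded and 0.193 to 0.392 CPM in de novo expanded libraries.

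Other genes of peroxide reduction were read from lists chosen for their function. Of 28 tested genes of glutathione and thiol antioxidants, *Gpx3* was the 1 called, and the median log2 difference was 0.02 against -0.00 over all genes. Of 25 tested selenoproteins and genes for their synthesis, 3 were higher at an unadjusted p under 0.05, beside a background of 2.72%, and the median was 0.05. Besides *Gpx3* these were *Selenok* at 448, 434 and 444 against 350, 342 and 294 normalized counts, and *Sephs2*, which makes the selenium donor, at 2296, 2158 and 1986 against 1522, 1706 and 1895. Glutathione reductase (*Gsr*), which regenerates the substrate of the peroxidases, was high in de novo expanded library 3 as well, and stood at 10379, 7746 and 7031 in stably expanded libraries and at 2463, 3450 and 8787 in de novo expanded libraries. *Mgst2*, a microsomal glutathione transferase, had the same form, with 711, 436 and 506 against 135, 175 and 660. Both were called only when that library was left out, with adjusted p of 0.0029 and 0.0032.

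The bases before the start sites of *Gpx3* and of *Zfp11*, which had the largest log2 difference of these genes in each direction, are shown because few or no reads of them were found in most libraries of 1 group. They are the 250 bases upstream of the RefSeq start on the gene's strand in GRCm38.p6, 5′ to 3′, with each CG dinucleotide in capitals (the letters CG read the same on both strands); 17 of the 24 had a RefSeq promoter. For *Gpx3* the stretch lies inside the gene's span as the table gives it, which starts further upstream. *Gpx3* (chr11:54902604-54902853, plus strand) holds 11 CG, and 35.6% of 32851 promoters of this length hold as many. *Zfp11* (chr5:129670089-129670338, minus strand) holds 16, as many as 25.4% of promoters do.
Gpx3: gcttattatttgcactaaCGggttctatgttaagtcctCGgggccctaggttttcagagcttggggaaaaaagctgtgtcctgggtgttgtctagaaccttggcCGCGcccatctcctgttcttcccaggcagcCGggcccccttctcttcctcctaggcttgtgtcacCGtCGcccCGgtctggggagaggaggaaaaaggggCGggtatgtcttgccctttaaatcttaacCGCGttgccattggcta
Zfp11: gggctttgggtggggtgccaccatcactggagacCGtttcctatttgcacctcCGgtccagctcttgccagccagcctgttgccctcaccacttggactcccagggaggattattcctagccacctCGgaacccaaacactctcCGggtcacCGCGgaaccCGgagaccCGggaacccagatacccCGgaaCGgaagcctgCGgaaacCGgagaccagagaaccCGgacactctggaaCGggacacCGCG

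*Fnbp1l*, an F-BAR protein that links membrane curvature to actin assembly, came next. Its stably expanded libraries held 1997, 1895 and 2255 normalized counts and its de novo expanded libraries 805, 666 and 869. The log2 difference of 1.40 ± 0.13 (SE) was larger than the spread within either group, and its adjusted p in limma was 0.0796. The gene was called with library quality weights, with no filter on low values and in 1 fit of all 9 libraries, where its adjusted p was 0.00463, 0.00259 and 0.0428. It lies at chr3:122538719-122619715 on the minus strand.

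*Ikzf3*, the Ikaros-family factor Aiolos, held 202, 160 and 217 normalized counts in stably expanded and 44.9, 25.1 and 76.8 in de novo expanded libraries, a log2 difference of 2.09 ± 0.40. *F5*, coagulation factor V, held 894, 624 and 389 against 285, 223 and 204. *Prg2*, the eosinophil granule major basic protein, was at 146, 51.0 and 113 against 6.73, 3.46 and 28.6. All genes of this list were chosen for having no overlap between the groups, so their separation is no result. Of these 3 genes, the gap between the groups on the log2 scale was narrowest in *F5*. *Klf5*, a Krüppel-like factor of the myeloid and epithelial lineages, was at 300, 129 and 76.8 against 21.3, 30.3 and 52.7. *Slc7a8*, an amino acid transporter, was flat within the stably expanded group at 115, 128 and 130 and spread from 18.0 to 61.7 in the other. *Ptprt*, a receptor tyrosine phosphatase, was lowest in de novo expanded library 3, at 325, 93.8 and 319 against 12.3, 70.9 and 6.25. The remaining 3 were *Ccdc91*, *Gm6768* and *Ajm1*, with log2 differences of 1.16, 1.43 and 1.87.

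Among the 12 lower genes, *Zfp11*, a zinc finger gene, was at 0.895, 0.910 and 14.6 normalized counts in stably expanded and at 129, 111 and 63.4 in de novo expanded libraries, a log2 difference of -4.67 ± 0.85. *Palld*, which encodes the actin-bundling protein palladin, was at 2.69, 6.37 and 11.9 against 70.7, 64.0 and 291. In *Palld*, de novo expanded library 3 was the furthest of all from the stably expanded ones. *Fyn*, a Src-family kinase, was at 7.16, 39.1 and 17.2 against 163, 198 and 51.8. *Mir17hg*, the host transcript of the miR-17-92 cluster, had the smallest p of the lower genes, with 68.0, 76.5 and 75.5 against 193, 178 and 141 and a difference of -1.20 ± 0.21. *Satb1*, a chromatin organizer of lymphoid and stem cells, held 241, 470 and 374 against 1305, 1297 and 577, and *Cers4*, a ceramide synthase, 62.7, 65.6 and 53 against 304, 320 and 81.3. In both, de novo expanded library 3 lay just above the stably expanded range. *Mtss1* and *Pkp4*, a membrane-bending and a desmosomal protein, differed by -1.72 and -2.25. *Il12a*, a cytokine subunit, differed by -1.04, the Notch coactivator *Maml2* by -1.27, and *Dnah8* by -1.45. For *Ighg2b*, an immunoglobulin constant region, the reads were 3, 0 and 0 against 242, 42 and 5, and their part in the sorted cells was not tested. The summed B cell list was highest in the same 2 libraries, as given above, but its 5 tested members split into 4 lower and 1 higher. *Ighm* was at 933, 1052 and 1142 against 2579, 2017 and 847 normalized counts. The higher member, *Cd79b*, was at 201, 129 and 245 against 84.2, 64.0 and 126, without overlap.

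**Figure D3:**
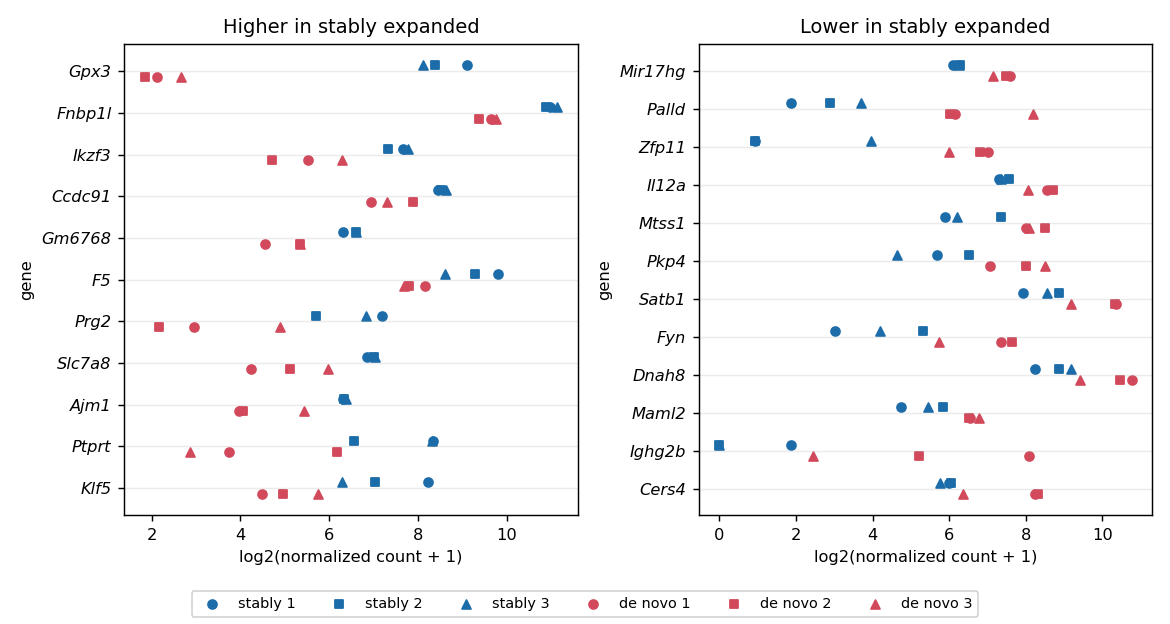
Log2(normalized count + 1) (horizontal axis) of the 11 higher and 12 lower genes (vertical axis) in each of the 6 libraries, blue for stably expanded and red for de novo expanded, with circles, squares and triangles for libraries 1, 2 and 3. The red triangles of *Gpx3* and *Fnbp1l* sit with the other red points, and those of *Cers4* and *Satb1* sit next to the blue ones.

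A stricter kind of separation was a count at or below 3 reads in every library of a group and above 3 in every library of the other, over all genes of the table. Of the 55401 genes in the table, 37490 had a read in any of the 6 libraries. Of these, 71 genes were at this floor in the stably expanded group and 39 in the de novo expanded group. How many would do so by order alone was not tested, so the counts are not read as a difference between the groups. Of the first kind, *Ighg2b*, *Slc16a7*, *Adam12*, *Rai14* and *Ephb2* had the highest levels. *Slc16a7*, a monocarboxylate transporter, had 1, 0 and 1 reads against 4, 48 and 104, and the metalloproteinase *Adam12* 0, 0 and 0 against 4, 10 and 76. *Ephb2*, an ephrin receptor, had 1, 2 and 0 against 22, 20 and 6 reads, a mean at least 5.04-fold higher in de novo expanded libraries when set against 3 reads per library. Of the second kind, *Zfp583* had 20, 36 and 17 reads against 2, 0 and 0 and *AU041133* had 38, 20 and 15 against 0, 2 and 0, at least 8.47-fold and 8.34-fold higher. Both are zinc finger genes, and both were called when de novo expanded library 3 was left out, with adjusted p of 0.0196 and 0.0171. *Grb7*, an adaptor of receptor tyrosine kinases, had 16, 13 and 20 reads against 0, 0 and 2. *Rtl6* and *Lhfpl2* were the other two of the 5 most abundant of this kind.

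Genes of the secondary granule and late neutrophil list had higher means in stably expanded cells throughout, and none passed the adjusted threshold. Of 20 members, 16 were tested, and all 16 had the higher mean in the stably expanded group beside 49.6% of all genes. Of these, 10 were higher at an unadjusted p under 0.05, beside 2.72% of all genes, and the median log2 difference was 2.14 against -0.00 over all genes. It stayed between 1.46 and 2.91 when each library was left out and between 2.11 and 2.25 under quantile normalization, centring and TMM. Only 1 of the 16 was without overlap, beside 4.66% of all genes without overlap and higher. The list's median deviation from the mean of the 6 libraries was 2.23, 1.17 and -0.09 in stably expanded libraries. In de novo expanded libraries it was -1.84, -1.42 and -0.05, so the 2 libraries numbered 3 lay at a similar level.

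*Ngp*, neutrophilic granule protein, had the smallest p of the list, 0.00813. It held 35742, 14293 and 4945 normalized counts in stably expanded libraries and 974, 1331 and 4836 in de novo expanded libraries, so that the lowest of the first exceeded the highest of the second only slightly. *Camp*, the cathelicidin precursor, was at 11040, 2795 and 1158 against 286, 358 and 1287. *Cebpe*, the factor that drives this stage, was at 1907, 962 and 1474 against 114, 217 and 1225. *Olfm4* was at 1168, 731 and 192 against 16.8, 27.7 and 336, and *Ltf*, lactoferrin, at 1349, 478 and 62.3 against 102, 33.7 and 89.3. Stably expanded library 1 was highest in each of these, and in all but *Ltf* de novo expanded library 3 was above libraries 1 and 2. Without de novo expanded library 3, 9 of the 16 were called higher, beside 2.58% of all genes, among them *Cebpe* with an adjusted p of 0.00126 and *Lcn2* with 0.00658. *Padi4*, which modifies histones in mature neutrophils, differed least, by 0.14.

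The stefin A cluster, cysteine protease inhibitors that neutrophils express late, had 4 tested members of 9 and a median of 2.28. *Stfa2l1* was at 43.9, 36.4 and 11.9 against 2.24, 6.05 and 5.36 and *Gm5483* at 111, 108 and 27.8 against 15.7, 10.4 and 18.8. Both were without overlap, including de novo expanded library 3, beside 4.66% of all genes without overlap and higher. Reads of these near-identical neighbors may be split between them, so the single values are uncertain. NADPH oxidase subunits had higher means in 6 of 6, with a median of 0.47. *Ncf1* was at 8899, 7017 and 6591 against 4014, 4414 and 6766, and *Cybb*, the catalytic subunit, at 2609, 1998 and 750 against 866, 1071 and 561.

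Primary granule genes varied with the libraries in the group. Of 10 members, 8 had the higher mean in stably expanded cells, 1 of them (*Ctsg*) at an unadjusted p under 0.05, and the median was 0.55 with all libraries and 1.17 without de novo expanded library 3. *Mpo* held 122290, 100251 and 112176 normalized counts in stably expanded libraries against 22013, 35741 and 216100. *Elane* was at 23815, 17168 and 16946 against 1989, 3586 and 29385, *Prtn3* at 11148, 8627 and 8267 against 3125, 3985 and 12783, and *Ms4a3* at 3759, 2954 and 2928 against 1009, 886 and 3948. In all 4 genes de novo expanded library 3 was the highest of the 6 libraries and libraries 1 and 2 were the lowest. The group means of *Mpo* were 111572 ± 11032 and 91285 ± 108311 (SD), and its adjusted p was 0.893 with 6 libraries and 0.00126 without library 3. *Ctsc*, the protease that activates these enzymes, went the other way at 277, 430 and 221 against 587, 588 and 153.

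Of the 15 myeloid transcription factors, *Gfi1*, a repressor needed for neutrophil differentiation, had the same form as the granule genes, at 4885, 3064 and 3618 against 990, 1259 and 4256. *Irf8*, which directs progenitors to monocytes and dendritic cells, was its mirror image, at 1672, 3440 and 1975 against 5261, 5802 and 865. *Id2* was at 265, 244 and 151 against 67.3, 50.1 and 160. Only *Id1*, at 154, 137 and 86.1 against 79.7, 37.2 and 62.5, and *Cebpb*, at 1523, 1090 and 1172 against 1059, 930 and 933, separated all 3 libraries from all 3, with unadjusted p of 0.0195 and 0.0442. Of all genes, 4.66% were without overlap and higher. In limma, 3 of the 15 were higher at an unadjusted p under 0.05, beside 2.72% of all genes. The list's median was -0.08.

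**Figure D4:**
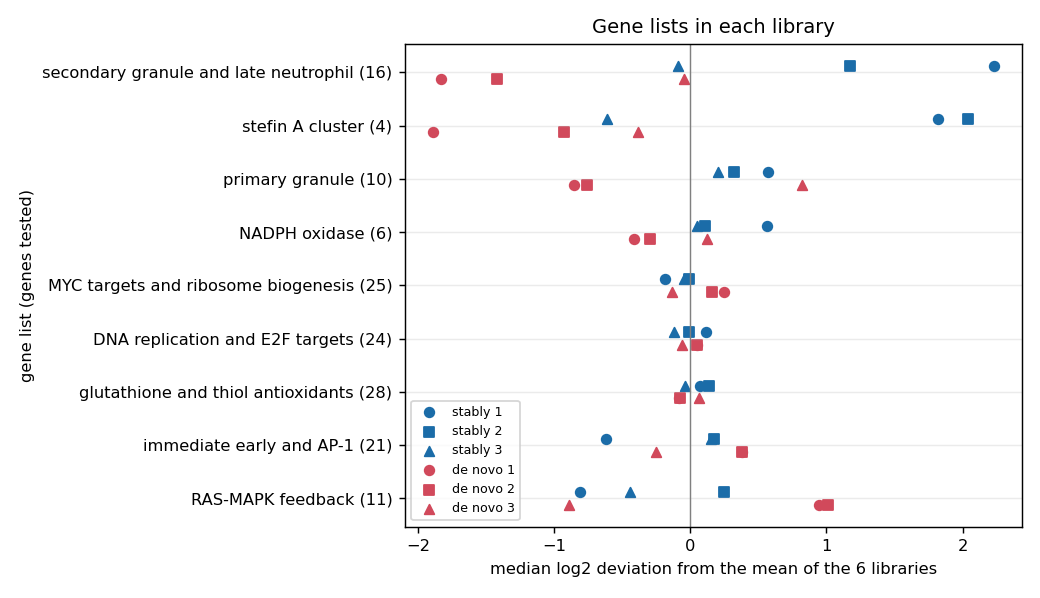
Median log2 deviation of the tested members of each gene list (vertical axis, number of members in brackets) from the mean of the 6 libraries (horizontal axis), 1 point per library, blue for stably expanded and red for de novo expanded. The red triangle, de novo expanded library 3, lies on the side of the blue points in the primary granule list. In the RAS-MAPK feedback list it lies at -0.89, on the side of stably expanded libraries 1 and 3 (-0.81 and -0.44), while stably expanded library 2 lies at 0.25. The lists of E2F targets and antioxidants lie within a narrow band around 0.

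The RAS-MAPK feedback list, genes induced by ERK signaling that dampen or relay it, had lower means, and no member passed either threshold with 6 libraries. All 11 tested members had the lower mean in stably expanded cells, with a median of -0.68, or -1.40 without de novo expanded library 3. *Dusp6*, the ERK phosphatase, was at 24.2, 332 and 47.7 against 379, 499 and 39.3. *Ccnd1*, cyclin D1, was at 5.37, 306 and 29.1 against 976, 699 and 7.15, *Etv5* at 5.37, 30.0 and 13.2 against 89.8, 116 and 2.68 and *Spred1* at 200, 471 and 291 against 823, 801 and 214. The same libraries were low in all 4 genes, namely stably expanded libraries 1 and 3 and de novo expanded library 3, and stably expanded library 2 lay between them and the 2 others. Without de novo expanded library 3, 2 of the 11 were called lower in limma, beside 1.11% of all genes. These were *Etv5* and *Spred1*, with adjusted p of 0.0279 and 0.0233. In a separate list of cell cycle inhibitors and G1 cyclins, 3 of 11 tested members had higher and 8 lower means. Of that list, *Ccnd2* was at 31.3, 275 and 78.2 against 823, 680 and 21.4, and the cyclin-dependent kinase inhibitor *Cdkn1c* in the opposite sense at 710, 390 and 465 against 49.4, 44.1 and 472. Immediate early genes had a median of -0.17, which turned to 0.16 without stably expanded library 1, so no direction is given.

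In the list of the *Hoxa9* and *Meis1* program, 5 of 13 tested members had higher and 8 lower means. *Flt3* held 547, 1334 and 1325 normalized counts against 2987, 3974 and 1003, *Cd34* 753, 1098 and 825 against 1459, 2200 and 638, *Hlf* 19.7, 36.4 and 45.0 against 114, 125 and 34.0, and the survival gene *Bcl2* 431, 900 and 506 against 2174, 1799 and 210. These 4 members were called lower without de novo expanded library 3, beside 1.11% of all genes. *Dach1* was called higher in that fit, at 1692, 1127 and 1614 against 87.5, 133 and 1439. The median of the 13 tested members was -0.09, near that of all genes, since the members split. Among homing genes, *Ccr2*, a chemokine receptor of monocytes, was at 255, 962 and 554 against 2653, 2460 and 239, *Itgb7* at 550, 1071 and 760 against 3523, 2723 and 296, and the tetraspanin *Cd63* at 2653, 1545 and 1818 against 186, 251 and 2454. *Cxcr2*, a neutrophil chemokine receptor, separated the groups, at 92.2, 71.9 and 57.0 against 11.2, 36.3 and 28.6, with an unadjusted p of 0.0101.

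MYC targets and ribosome biogenesis genes had slightly lower means in stably expanded cells in 22 of 25 cases, with a median of -0.20 that ranged from -0.32 to -0.10 when each library was left out. *Nop16* was at 499, 541 and 501 against 723, 656 and 684 and *Ppan* at 929, 1181 and 1210 against 1671, 1717 and 1251, with unadjusted p of 0.0067 and 0.0223; 3 of 25 had such a p under 0.05 and were lower, beside 2.11% of all genes. Lists of DNA replication, mitosis, oxidative phosphorylation, glycolysis and cholesterol synthesis had medians between -0.03 and 0.04. Under an unadjusted p of 0.05 were 1 of 24 glycolysis genes, 2 of 22 cholesterol genes and none of the others, beside 4.83% of all genes. Medians of NF-kB targets, MHC class I, heat shock, p53 target and cytokine receptor lists lay between -0.09 and 0.06 and that of stress response genes was -0.105, with no gene called. Of 14 tested p53 targets, 2 were higher and 1 lower at an unadjusted p under 0.05, beside 2.72% and 2.11% of all genes. Without overlap were 2 higher and 2 lower p53 targets, beside 4.66% and 4.95% of all genes. The other lists of this kind had no gene at such a p. The interferon-stimulated list had a median of -0.00, which moved to 0.37 when de novo expanded library 3 was left out and to -0.25 when stably expanded library 3 was. That of the 8 MHC class II genes was 0.33, which turned to -0.11 without stably expanded library 1. The cell cycle inhibitor *Cdkn2a* had a higher value in each stably expanded library, at 28.6, 53.7 and 34.4 against 7.86, 22.5 and 12.5, with an unadjusted p of 0.0191.

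The spread within the de novo expanded group was larger than within the stably expanded group, with library 3 the distant one: de novo expanded libraries 1 and 2 were as close to each other as stably expanded libraries were. The median SD of log2(normalized count + 1) over 3 libraries was 0.222 in the stably expanded and 0.279 in the de novo expanded group, and it was larger in the latter for 61.0% of genes. An SD of at least 1 was reached by 677 genes in the first group and 1303 in the second. In the stably expanded group host and library preparation cannot be told apart, and in the de novo expanded group neither can be told apart from clone.

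Some genes stood at least 4-fold above or below each of the other 5 libraries. There were 28, 10 and 48 such genes in stably expanded libraries 1, 2 and 3 and 62, 19 and 71 in de novo expanded libraries 1, 2 and 3. Most were low rather than high, and most low genes had 3 reads or fewer in their library. These were 26 of 28 in stably expanded library 1, 7 of 8 in library 2 and all 47 in library 3, the shallowest. In de novo expanded libraries 1, 2 and 3 they were 37 of 54, 12 of 14 and 36 of 49. De novo expanded library 3 had the most high genes, 22, against 0 to 8 in the others.

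Several of these genes were abundant. In de novo expanded library 1, the predicted gene *Gm48722* on chromosome 10 held 3502 normalized counts, from 3121 reads, where the other 5 libraries had at most 1 read, and *Pcbp3*, an RNA-binding protein, held 157 against at most 1.79. In that library *Pja1*, a ubiquitin ligase, held 4.49 against 354 to 461 in the others. In de novo expanded library 2, *Ighg2c* reached 247 against at most 12.5. In de novo expanded library 3, *Gm7638* reached 670 against at most 16.1, and the Ikaros-family factor *Ikzf2* (Helios) 339 against at most 13.2. *Msantd3* had no read there and at least 14 reads in each other library. Within the single clone of the stably expanded group, *Gria3*, a glutamate receptor subunit, held 65.6 in library 2 against 1713 to 4989 in the other 5 libraries. Stably expanded library 1 had no read of *Arhgap32*, where the others had 12 to 60, and library 3 held 2 reads of *Taf9b* where the others had 53 to 92.

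**Figure D5:**
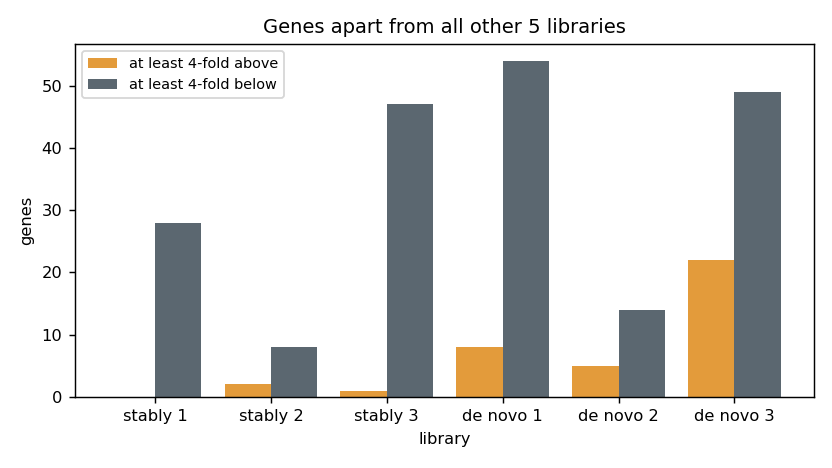
Number of genes (vertical axis) at least 4-fold above (orange) or below (grey) every one of the other 5 libraries, for each library (horizontal axis). Low genes outnumber high genes in all 6 libraries, and de novo expanded library 3 has 22 high genes.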

How the data were processed

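Stranded total RNA libraries of sorted splenocytes were trimmed, aligned to GRCm38.p6 and counted per gene by the authors (Trim Galore 0.6.4, STAR 2.6.1d and featureCounts 1.6.4 per the submitters' processing notes). The deposited values are signal, that is counts divided by size factors of DESeq2. Deposited gene lengths, log2 fold changes, score columns of Wald statistics and p-values of the authors' own comparisons were not used.

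Whole reads were recovered for at least 99.98% of values (tolerance 0.05). Genes with a mean of at least 10 were tested with limma 3.58.1 (R 4.3.3) on log2(normalized count + 1) with an intensity trend and Benjamini-Hochberg adjustment, and called at an adjusted p under 0.05 and 2-fold. Fold changes on this scale understate those of low genes. edgeR 4.0.16 and DESeq2 1.42.0 on the recovered reads were alternatives. The fits were tested on simulated data. Named genes were those called, the 12 of each direction with the smallest p among genes without overlap, 2-fold apart and with a mean of at least 50, the 5 most abundant of each kind at 3 reads or fewer in a group, and genes of the sort and design; some are not reported here. Members of lists, and single genes of 1 library, were named for their role or level after their values had been seen. Members and lists were chosen with earlier results of these data known. p-values measure the spread between these samples only.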

Additional observations from a re-analysis of the deposited data

How the results depend on the processing

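The count of called genes was 1 with a pseudocount of 0.1 or 5, a mean of at least 50, quantile normalization, centring, no fold limit and edgeR. It was 2 with no filter on low values, with library quality weights and in 1 fit of all 9 libraries, *Fnbp1l* being added each time, and DESeq2 called 29 genes without and 16 with a prior. Leaving out each library gave 0 to 508 calls with limma and 0 to 507 with edgeR, the latter chosen after seeing the data; the count was 0 without any 1 stably expanded library in limma and rose to 508 and 507 without de novo expanded library 3. Genes without overlap ranged from 2098 to 5276 (15.2% to 38.4%) when each library was left out, and from 2098 to 2765 (15.2% to 20.1%) when it was not de novo expanded library 3. With 1 library fewer, values fail to overlap more often by order alone, so these shares do not compare with that of the full set. The cause of the larger share without de novo expanded library 3 was not tested. Near 0, direction turned for *Hoxa9* with edgeR (-0.00188) and with DESeq2 without (-0.00485) or with a prior (-0.00400). Leaving out each library, the log2 difference ranged from -0.18 to 0.30 for *Kit*, from -0.105 to 0.0497 for *Ptprc*, from -0.17 to 0.33 for *Hoxa9* and from -0.10 to 0.38 for *Meis1*. De novo expanded library 1 turned *Kit*, *Hoxa9* and *Meis1* when left out, and de novo expanded library 2 turned *Ptprc*. No paired analysis was possible because the columns carry no mouse or clone number. Groups of 3 cannot go below an exact p of 0.1, and genes at 3 reads or fewer are not shown to be absent.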

Other observations

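The 3 pre-malignant libraries, of the clones that later expanded de novo and from mouse #15, were tested against neither group. On the scale of the 508 genes called without de novo expanded library 3, with 0 at the mean of de novo expanded libraries 1 and 2 and 1 at the stably expanded mean, their medians were 0.565, 0.513 and 0.395. All 3 lay between the 2 poles, while de novo expanded library 3 was at 1.14. The genes were chosen for the distance between these poles. A library outside that choice can fall between them for this reason alone, so no conclusion is drawn from these medians. *Fnbp1l* stood at 125, 193 and 151 CPM in the pre-malignant libraries, beside 146, 143 and 164 CPM in the stably expanded and 59.8, 49.5 and 63.5 CPM in the de novo expanded libraries.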
